A study of Mus musculus with 6 samples.

Results

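RNA polymerases I and III (Pol I and Pol III) were followed through 36 genes for their subunits and initiation factors, out of 25690 gene symbols in the tables. The genes were taken from a list of names, drawn up by function when earlier results of these data were known. All 36 were found in the GENCODE M21 annotation of the mouse genome (GRCm38), and all 36 had enough counts to be tested, among 15474 genes tested. They comprise 6 subunits of Pol I, 2 subunits that Pol I and Pol III share, 7 Pol I factors, 10 Pol III subunits, the 3 TFIIIB genes, the TFIIIA gene, 6 TFIIIC genes and the Pol III repressor *Maf1*.

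The cells were CD27SP NK cells, sorted from the BM as NK1.1+CD27+CD11b− cells, and they are the immature, dividing stage of the lineage. Mice of the genotype *Ncr1cre Myc* wt/wt gave 3 libraries and those of *Ncr1cre Myc* fl/fl another 3, each set numbered 1, 2 and 4. Both genotypes carry the Cre recombinase at the *Ncr1* locus and a C57BL/6 background, and they differ in the loxP-flanked *Myc* alleles, which Cre removes once a cell expresses NKp46. The mice were sex- and age-matched and between 6 and 14 wk old. CD27SP cells are the earliest stage at which this deletion takes place. Nothing in the labels says that the libraries are separate mice, so the p-values measure the spread between these libraries. In bulk RNA, fewer cells of a type and less RNA per cell cannot be told apart.

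Pol I transcribes the repeated genes of the large ribosomal RNAs in the nucleolus, and Pol III transcribes 5S rRNA, the tRNAs and other short RNAs. Pol I is brought to its promoter by UBF and the TBP-containing complex SL1, and Pol III by TFIIIB, which is placed by TFIIIC and, at 5S genes, TFIIIA. Myc is known to raise the output of both polymerases in growing cells, in part by acting on their genes and in part by binding their factors. The libraries were made from polyadenylated RNA, so the mRNAs of the machinery were measured, and its products, rRNA and tRNA, were not.

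Myc and its partner Max bind the E-box CACGTG, and the promoters were therefore searched for these letters, which read the same on both strands. RefSeq promoter windows (GRCm38.p6, from 250 bases before to 50 bases after a start) were at hand for 30 of the 36 genes, in 39 windows, and not for *Polr3a*, *Polr3d*, *Crcp*, *Brf1*, *Brf2* and *Maf1*. The E-box was present in 7 windows of 6 genes. This is 20% of the 30 genes, against 10.98% of the 10886 tested genes with a window, and 7.15% of all 32851 windows hold it. The sites are shown with 12 bases on either side, with the E-box in capitals, since they are the places where the letters that Myc reads occur near a start of these genes. Positions are counted from the start of transcription in RefSeq to the first base of the E-box.
Cd3eap, −218, chr7:19359684-19359713, minus strand: gttggaagaaacCACGTGagcaaagttgtc
Cd3eap, 21, chr7:19359446-19359475, minus strand: accccttggatcCACGTGgtgggcagcgtt
Rrn3, −215, chr16:13780472-13780501, plus strand: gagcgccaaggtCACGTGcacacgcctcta
Rrn3, −48, chr16:13780639-13780668, plus strand: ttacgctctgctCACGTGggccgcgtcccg
Polr3c, −237, chr3:96727659-96727688, minus strand: gcccgcaagggtCACGTGagtccgcccggc
Polr3e, 6, chr7:120917771-120917800, plus strand: ccccgctcccccCACGTGtccggcggagtt
Polr3gl, −194, chr3:96594358-96594387, minus strand: ttctggctccgcCACGTGtctggatgagct
Gtf3c6, −206, chr10:40257751-40257780, minus strand: gtgtcgagtctcCACGTGggacccacttac

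The *Gtf3c6* site lies in 2 windows, 206 bases before one start and 56 bases before the other. The 3 genes with an adjusted p under 0.05 in the comparison of genotypes, *Polr1b*, *Polr1e* and *Gtf3a*, do not have CACGTG in their windows. Their promoters are shown as the 150 bases that end just before the RefSeq or the GENCODE start, whichever lies further upstream, on the plus strand, with any CANNTG, the wider E-box form, in capitals.
Polr1b, chr2:129100845-129100994: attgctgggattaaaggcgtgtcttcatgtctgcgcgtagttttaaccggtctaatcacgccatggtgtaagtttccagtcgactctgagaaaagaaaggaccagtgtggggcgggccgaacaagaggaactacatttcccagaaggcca
Polr1e, chr4:45018433-45018582: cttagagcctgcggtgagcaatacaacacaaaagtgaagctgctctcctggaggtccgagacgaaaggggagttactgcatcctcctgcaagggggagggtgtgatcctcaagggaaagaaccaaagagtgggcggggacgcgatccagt
Gtf3a, chr5:146948507-146948656: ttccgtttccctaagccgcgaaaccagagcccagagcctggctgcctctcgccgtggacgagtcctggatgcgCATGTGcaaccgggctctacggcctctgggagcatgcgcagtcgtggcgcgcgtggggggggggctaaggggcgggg

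In these stretches CANNTG occurs once, in *Gtf3a*, 77 bases before the RefSeq start. The wider form is common, at 65.1% of the windows of tested genes and 27 of the 39 windows of the polymerase genes. The median log2 fold change, *Myc* fl/fl over *Myc* wt/wt, was −0.18 for the 6 genes with CACGTG and −0.24 for the 24 genes without it. Of the 6, *Cd3eap* and *Polr3e* had the lowest log2 fold changes (−0.55 and −0.53) and *Polr3gl* the highest (0.23). Without replicate 4, *Cd3eap* had −0.32.

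The estimated counts summed to 8101219 in *Myc* wt/wt library 1 and to between 54550907 and 64962491 in the other 5 libraries, so that library 1 is the least precise. Every polymerase gene was nevertheless counted there, from 59 counts for *Polr3g* to 1416 for *Maf1*. *Myc* itself was lower in *Myc* fl/fl cells, at 61.5, 64.6 and 76.5 CPM (counts per Mio, after TMM normalization) in libraries 1, 2 and 4, against 200.5, 183.4 and 164.3 in *Myc* wt/wt cells. The log2 fold change was −1.44 (SE, the standard error, 0.15, with adjusted p = 0.00189 in edgeR's quasi-likelihood test with Benjamini-Hochberg adjustment). The defining NK cell genes, *Nkg7* and *Il2rb* foremost, were present in every library. Their summed levels, in CPM without TMM as for all marker sums below, were 14840 to 16760 in *Myc* wt/wt and 18520 to 19160 in *Myc* fl/fl cells. Of these 12 genes, 9 had a positive and 3 a negative log2 fold change, with a median of 0.12, and 1 was higher at an adjusted p below 0.05 in edgeR.

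The genotypes also differed in marker genes of other kinds. The 2 genes named for each kind are its most abundant and need not be among those called. All 12 genes of dividing cells (*Top2a* and *Mcm5*) had negative log2 fold changes, 10 of them at an adjusted p under 0.05. *Mcm5* had the smallest change of the 12 and was not called (−0.50, edgeR adjusted p = 0.0974). The summed level of the 12 was 2058 to 2539 CPM in *Myc* wt/wt and 1116 to 1517 CPM in *Myc* fl/fl libraries. Genes of basophils and mast cells (*Kit* and *Prss34*; 103 to 116 against 256 to 530 CPM, 8 of 10 higher and 1 lower), of granulocyte-monocyte progenitors and neutrophils (*Mpo* and *Elane*; 81.8 to 142.5 against 547 to 902 CPM, 8 of 11 higher), of monocytes (*Ccr2* and *Ly6c2*; 1686 to 1833 against 2085 to 2396 CPM, 4 of 8 higher) and of erythroid cells (*Hba-a2* and *Hbb-bs*; 47.7 to 288 against 565 to 1192 CPM, 8 of 8 higher) were higher in *Myc* fl/fl libraries by the same rule. Plasmacytoid dendritic cell genes (*Tcf4* and *Cox6a2*) had 88.5 to 119.9 against 142.4 to 167.5 CPM. Of the 6, 2 were higher, but not *Tcf4* (0.45, edgeR adjusted p = 0.0808) or *Cox6a2*, which had −0.41 (edgeR adjusted p = 0.311). Nor was *Ccr2* among the 4 monocyte genes called (0.25, edgeR adjusted p = 0.305). B cell genes (*Cd79b* and *Ebf1*, 4.28 to 8.72 against 11.6 to 16.2 CPM) had none at an adjusted p under 0.05. The same held for T cell genes (*Trbc1* and *Trbc2*, 863 to 1262 against 906 to 1149 CPM). *Vpreb1*, a B cell gene, was at 0 in all *Myc* wt/wt libraries, and no other marker was at 0 throughout a genotype. The part of these shifts in the results that follow was not tested.

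Most of the Pol I and Pol III genes had lower levels in *Myc* fl/fl cells, by small amounts, and the lowest log2 fold changes were those of *Polr1e*, *Polr1b* and *Gtf3a*. Of the 36 genes, 26 had a negative log2 fold change (72.2%), against 48.5% of all genes tested. The median was −0.20 for the 36 genes and 0.01 for all genes tested. In the 3 same-numbered pairs of libraries it was −0.19, −0.14 and −0.16. The study asks for an adjusted p below 0.01 and a log2 fold change of 0.5 or more either way, met in each of 3 tools (edgeR, limma-trend and DESeq2). No gene passed these limits in edgeR, and 0 passed with the largest adjusted p of the 3 tools. Over all genes tested, 0.872% passed them in edgeR as lower and 1.28% as higher. With the largest adjusted p of the 3 tools, 78 of the 15474 genes tested passed as lower and 144 as higher. At an adjusted p below 0.05 in edgeR, 3 genes were lower in *Myc* fl/fl cells, *Polr1b*, *Polr1e* and *Gtf3a*, and 0 were higher. The background at this limit was 3.38% lower and 4.45% higher.

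At an unadjusted p below 0.05, 9 of the 36 genes were lower (background 10.2%) and 1 was higher (background 12.4%). Every *Myc* fl/fl library was below every *Myc* wt/wt library for 14 genes, where 15.1% of all genes tested showed this. Every one was above for 2, *Polr3a* and *Polr3gl*, where the background was 16.2%. For *Polr3a* the groups were barely apart (32.80 CPM in *Myc* wt/wt and 32.89 CPM in *Myc* fl/fl library 2) and overlapped in TPM. In each of the 3 pairs, 18 genes were lower and 4 were higher, with backgrounds of 21.2% and 24.2%. In edgeR, the share of lower genes lay above the background under each of these rules and the share of higher genes below it, apart from the stricter limits, where both were 0. With DESeq2, 5 genes were lower at an adjusted p below 0.05, the same 3 with *Polr1a* and *Polr3e*, where the tool's background was 6.43% of the 13974 genes with an adjusted p. *Polr1b*, *Polr1e* and *Gtf3a* passed the stricter limits in DESeq2 (background 3.92%), and *Polr1b* and *Gtf3a* passed them in edgeR with no filter on low counts (background 1.83%). With limma-trend, the same 3 genes were lower at 0.05 (background 2.97%) and 0 passed the stricter limits. Of all 15474 genes tested, 78 passed these in limma-trend as lower and 144 as higher.

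**Figure D1:**
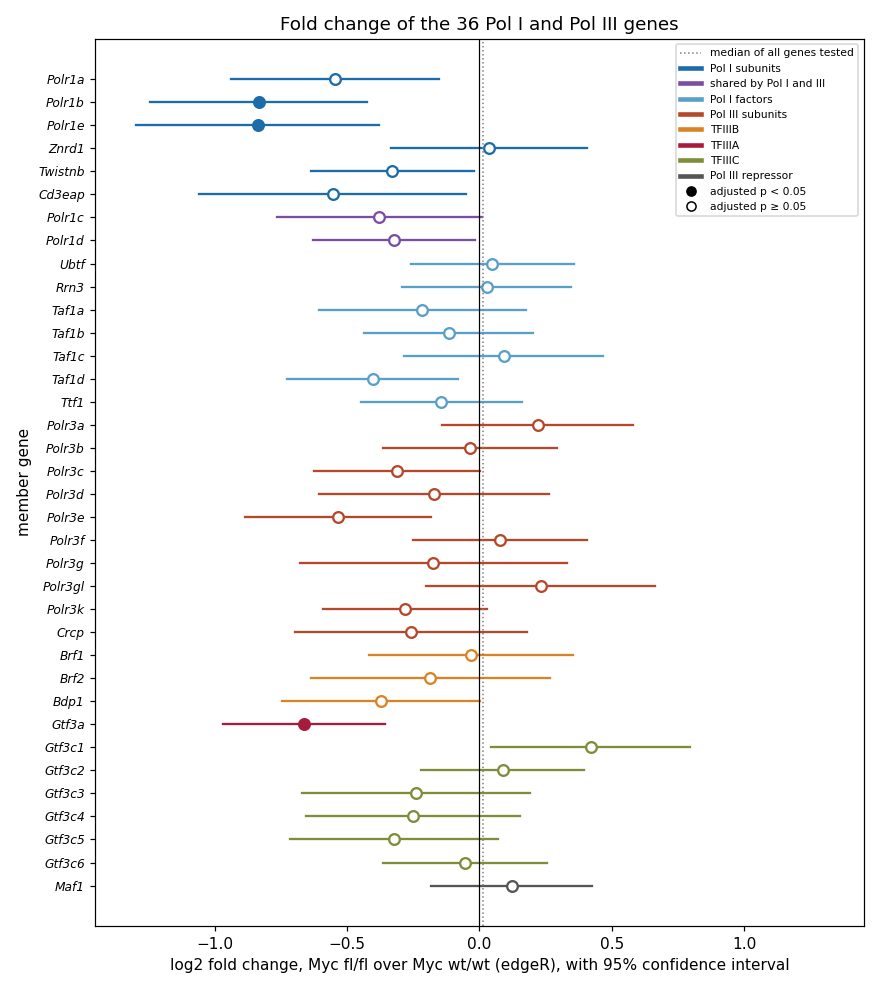
Log2 fold change of each of the 36 genes, Myc fl/fl over Myc wt/wt, on the horizontal axis with its 95% confidence interval from edgeR (3 libraries per genotype), with the genes in order of role on the vertical axis and filled points for an adjusted p below 0.05. The 3 filled points are *Polr1b*, *Polr1e* and *Gtf3a*, and *Gtf3c1*, at 0.42, is furthest to the right.

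The 6 subunits that belong to Pol I alone had a median log2 fold change of −0.55, and 5 of the 6 were lower in every *Myc* fl/fl library than in any *Myc* wt/wt library (background 15.1%). *Polr1b* (ENSMUSG00000027395, chromosome 2 from 129100995 to 129126594) encodes the second largest subunit, which forms the active centre together with the largest. In libraries 1, 2 and 4 its level was 53.8, 46.9 and 41.1 CPM in *Myc* wt/wt cells and 22.4, 26.6 and 30.4 CPM in *Myc* fl/fl cells. The groups did not overlap, and the *Myc* fl/fl libraries kept 56.0% of the *Myc* wt/wt mean. Means were 47.2 ± 6.38 and 26.5 ± 4.00 CPM (SD, n = 3 each), and the log2 fold change was −0.83 (SE 0.18, edgeR adjusted p = 0.0249). The gap was widest in pair 1 (−1.25 on the log2 scale) and narrowest in pair 4 (−0.43). One protein-coding transcript, ENSMUST00000103205, held 91.1% of the gene's transcripts per Mio (TPM) in *Myc* wt/wt cells, and its mean was 16.1 TPM there and 9.61 TPM in *Myc* fl/fl cells.

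*Polr1e* (ENSMUSG00000028318, chromosome 4 from 45018583 to 45036565) encodes a subunit that pairs with the *Cd3eap* product on the polymerase and takes part in initiation and elongation. It had 32.1, 23.4 and 24.7 CPM in *Myc* wt/wt and 12.8, 16.6 and 15.0 CPM in *Myc* fl/fl libraries 1, 2 and 4. All 3 *Myc* fl/fl values lay below the lowest *Myc* wt/wt value, and *Myc* wt/wt library 1, the shallow one, was the highest with 247 counts. Means were 26.7 ± 4.69 and 14.8 ± 1.91 CPM (SD, n = 3 each), and the log2 fold change was −0.84 (SE 0.21, edgeR adjusted p = 0.0377). Among its transcripts, ENSMUST00000054723 went from a mean of 13.9 to 6.46 TPM and ENSMUST00000029999 from 6.97 to 5.37 TPM. The first of these had 21.8 TPM in *Myc* wt/wt library 1 and 9.02 and 11.03 TPM in libraries 2 and 4.

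*Polr1a*, *Cd3eap* and *Twistnb* are described with their values although their adjusted p missed 0.05 in edgeR, a choice made after the values were seen. *Polr1a*, the largest subunit, had 43.8, 38.4 and 30.3 CPM in *Myc* wt/wt and 28.9, 21.4 and 26.5 CPM in *Myc* fl/fl libraries, a log2 fold change of −0.54 (edgeR adjusted p = 0.0940). *Cd3eap* had 13.5, 13.8 and 18.7 CPM against 11.03, 11.16 and 9.11 CPM, a log2 fold change of −0.55 (edgeR adjusted p = 0.179). The *Cd3eap* value rested on pair 4 (−0.28, −0.30 and −1.002 on the log2 scale in pairs 1, 2 and 4) and was −0.32 without replicate 4. The groups did not overlap for either gene, although for *Polr1a* the lowest *Myc* wt/wt and the highest *Myc* fl/fl library were close. *Twistnb*, part of the stalk that meets the initiation factor Rrn3, had a log2 fold change of −0.33. *Znrd1*, the small subunit for RNA cleavage, had 0.04 and was the only one of the 6 whose groups overlapped. A short stretch of *Cd3eap* (106 exonic bases, 4.25%) overlaps the antisense gene *Ercc1*, and the library kit does not mark strand.

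**Figure D2:**
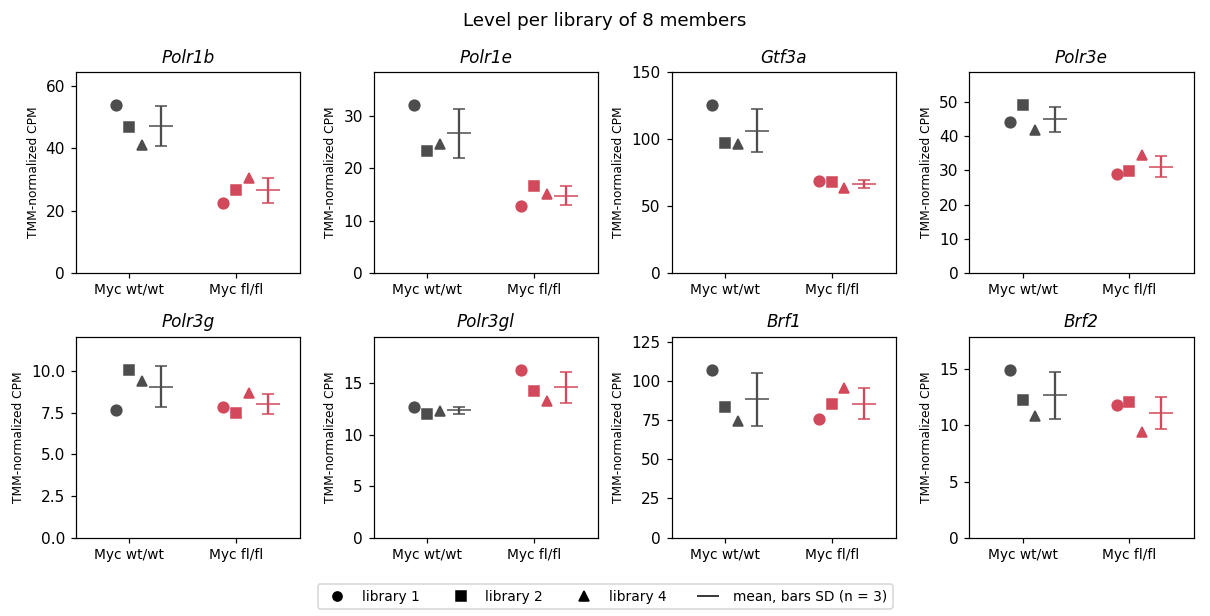
TMM-normalized CPM (vertical axis, from 0) of 8 genes in each Myc wt/wt and Myc fl/fl library, with symbols for libraries 1, 2 and 4 and the mean with SD (n = 3) beside them. The genotypes are apart for *Polr1b*, *Polr1e*, *Gtf3a* and *Polr3e*, with *Myc* fl/fl lower, and for *Polr3gl*, with *Myc* fl/fl higher, while *Polr3g*, *Brf1* and *Brf2* overlap.

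The 2 subunits that Pol I and Pol III share, *Polr1c* and *Polr1d*, which form the assembly platform of both enzymes, had log2 fold changes of −0.38 and −0.32. Both were lower in each *Myc* fl/fl library than in any *Myc* wt/wt library (background 15.1%). For *Polr1c* the nearest libraries were close, at 25.08 CPM in *Myc* wt/wt and 24.08 CPM in *Myc* fl/fl cells. *Polr1d* had an unadjusted p below 0.05 (background 10.2%, edgeR adjusted p = 0.196) and *Polr1c* did not.

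The 7 Pol I factors had a median log2 fold change of −0.12. *Ubtf*, which encodes UBF, had 0.05, and *Rrn3*, which carries growth signals to Pol I and has a pair of E-boxes, had 0.03. The SL1 subunits *Taf1a*, *Taf1b*, *Taf1c* and *Taf1d* had −0.22, −0.12, 0.09 and −0.40, and the terminator protein *Ttf1* had −0.14. For *Taf1b* the log2 differences were −0.33, 0.08 and −0.10 in pairs 1, 2 and 4, and pair 1 holds the shallow library. *Taf1d* was the one with an unadjusted p below 0.05 (edgeR adjusted p = 0.129). For 2 of the 7, *Taf1d* and *Ttf1*, every *Myc* fl/fl library was below every *Myc* wt/wt library (background 15.1%). *Taf1d* hosts snoRNAs, and 584 exonic bases of *Taf1c* (16.7%) overlap the antisense gene *Dnaaf1*, so reads of these stretches can be divided between genes. At an unadjusted p below 0.05, 5 of the 6 subunits and 1 of the 7 factors were lower (background 10.2%), and the values of the groups overlapped, with *Taf1d* below *Twistnb*.

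The largest and second largest subunits of the 2 polymerases were set against each other within libraries, which leaves out any scaling between libraries. These ratios were chosen after the values were seen and carry no test. In libraries 1, 2 and 4 the log2 ratio of *Polr1b* to *Polr3b* was 0.17, −0.06 and −0.04 in *Myc* wt/wt cells, against −1.07, −0.65 and −0.63 in *Myc* fl/fl cells. The log2 ratio of *Polr1a* to *Polr3a* was 0.50, 0.23 and 0.04 against −0.30, −0.62 and −0.61. In both, every *Myc* fl/fl library was below every *Myc* wt/wt library, and the difference of the means was −0.80 (pooled SD 0.20) and −0.76 (pooled SD 0.21). In TPM, an alternative added after seeing the data, the differences were −0.75 (pooled SD 0.18) and −0.44 (pooled SD 0.19), again without overlap. *Polr3a* and *Polr3b*, the large catalytic subunits of Pol III, had log2 fold changes of 0.22 and −0.04 themselves, and means of 17.1 and 16.1 TPM in *Myc* wt/wt and 17.2 and 17.2 TPM in *Myc* fl/fl cells.

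**Figure D3:**
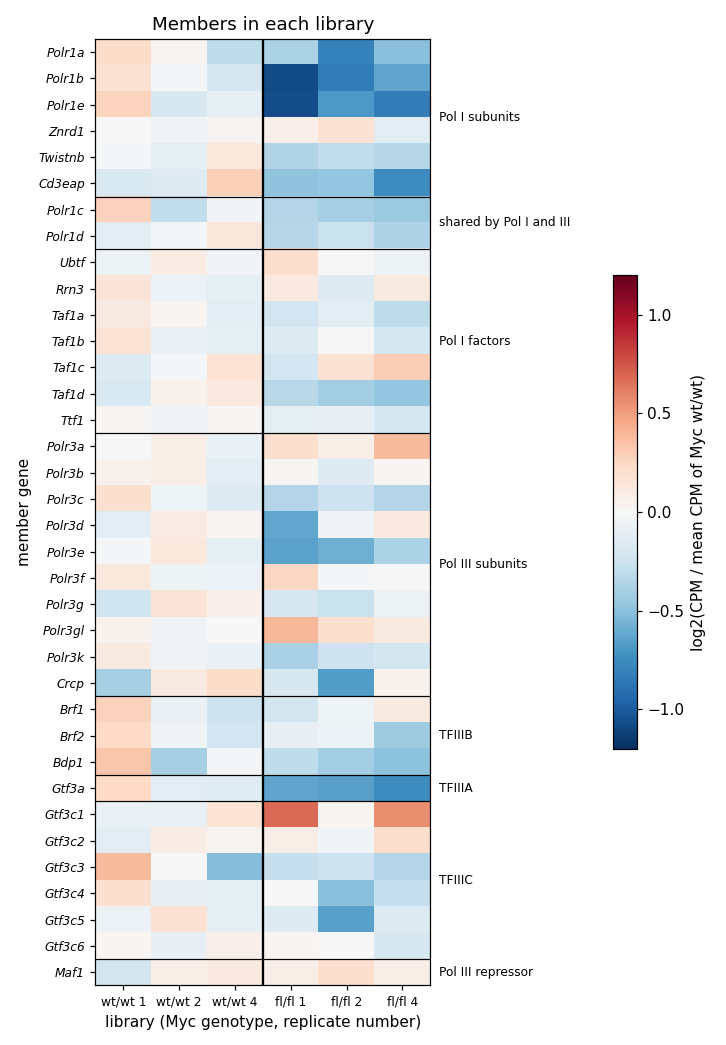
Level of each of the 36 genes (vertical axis, in order of role) in each library (horizontal axis) as log2 of its CPM over the mean CPM of the 3 Myc wt/wt libraries, in blue below and in red above that mean. The block of Pol I subunits is blue in all 3 Myc fl/fl columns except for *Znrd1*, *Gtf3a* is blue in all 3, and *Gtf3c1* is red in Myc fl/fl libraries 1 and 4.

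The 10 Pol III subunits had a median log2 fold change of −0.17, and none had an adjusted p below 0.05 in edgeR. *Polr3e*, a subunit of the TFIIF-like pair with *Polr3d*, had the lowest value, and its library values are given for that reason. It had 44.2, 49.1 and 41.8 CPM in *Myc* wt/wt and 28.9, 29.9 and 34.5 CPM in *Myc* fl/fl libraries 1, 2 and 4. The groups were apart, with a log2 fold change of −0.53 (SE 0.16, edgeR adjusted p = 0.0700), and the adjusted p was 0.0351 without the replicate block and 0.0225 in DESeq2. Its partner *Polr3d* had −0.17. *Polr3c* and *Polr3f*, which open the promoter together with *Polr3g* or *Polr3gl*, had −0.31 and 0.08. *Polr3k*, needed for termination, had −0.28, and *Crcp*, a stalk subunit, had −0.26, which rested on pair 2 (0.20, −0.76 and −0.18 in pairs 1, 2 and 4) and was 0.0122 without replicate 2. Besides *Polr3e*, *Polr3c* and *Polr3k* were lower in each *Myc* fl/fl library than in any *Myc* wt/wt library, which makes 3 of the 10 (background 15.1%).

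*Polr3g* (chromosome 13 from 81673843 to 81711013) and *Polr3gl* (chromosome 3 from 96577872 to 96594181) encode alternative forms of one subunit, of which the *Polr3g* form is known from stem cells and dividing cells. *Polr3g* had 7.67, 10.05 and 9.42 CPM in *Myc* wt/wt and 7.86, 7.50 and 8.69 CPM in *Myc* fl/fl libraries, which overlapped (log2 fold change −0.17, SE 0.23, edgeR adjusted p = 0.723). *Polr3gl* had 12.73, 11.998 and 12.34 CPM against 16.3, 14.2 and 13.3 CPM, where the *Myc* fl/fl libraries were all higher (log2 fold change 0.23, SE 0.19, edgeR adjusted p = 0.545). The log2 ratio of *Polr3g* to *Polr3gl* in CPM was −0.46 ± 0.25 in *Myc* wt/wt and −0.86 ± 0.22 in *Myc* fl/fl cells (SD, n = 3 each). The difference of −0.40 was larger than the pooled SD of 0.24, but the libraries of the genotypes overlapped. In TPM the difference was −0.15. *Myc* wt/wt library 1, with 59 counts of *Polr3g*, stood at −2.70 there, against −0.97 and −0.90 in libraries 2 and 4.

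Of the TFIIIB genes, *Bdp1*, which is part of TFIIIB at every kind of Pol III promoter, had a log2 fold change of −0.37. *Brf1* (chromosome 12 from 112960085 to 113000704) serves tRNA and 5S genes, and *Brf2* (chromosome 8 from 27123364 to 27128680) serves genes of the U6 type. *Brf1* had 107, 83.7 and 74.4 CPM in *Myc* wt/wt and 75.7, 85.4 and 95.5 CPM in *Myc* fl/fl libraries, which overlapped, with −0.50, 0.03 and 0.36 in pairs 1, 2 and 4. Its log2 fold change was −0.03 (SE 0.17, edgeR adjusted p = 0.945), with a 95% confidence interval from −0.42 to 0.35. *Brf2* had 14.9, 12.3 and 10.8 CPM against 11.8, 12.1 and 9.43 CPM, also with overlap (log2 fold change −0.19, SE 0.20, edgeR adjusted p = 0.660). The level of *Brf1* was above that of *Brf2* in every library, by a mean log2 ratio of −2.49 for *Brf2* to *Brf1* in TPM in *Myc* wt/wt and −2.88 in *Myc* fl/fl cells.

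TFIIIA, the zinc finger protein that recognizes the 5S rRNA gene, is encoded by *Gtf3a* (ENSMUSG00000016503, chromosome 5 from 146948657 to 146955614). The gene had 125, 97.4 and 96.5 CPM in *Myc* wt/wt and 68.8, 67.9 and 63.4 CPM in *Myc* fl/fl libraries 1, 2 and 4. The *Myc* fl/fl libraries lay close together and all below the *Myc* wt/wt libraries, at 62.7% of their mean. Means were 106 ± 16.4 and 66.7 ± 2.91 CPM (SD, n = 3 each), and the log2 fold change was −0.66 (SE 0.14, edgeR adjusted p = 0.0198). In the transcript estimates, which divide shared reads, ENSMUST00000146511 had 131, 88.5 and 93.9 TPM in *Myc* wt/wt and 64.6, 60.5 and 56.3 TPM in *Myc* fl/fl libraries. The other main transcript, ENSMUST00000132102, had means of 27.3 and 28.3 TPM, with 14.4 TPM in *Myc* wt/wt library 1 against 37.8 and 29.6 TPM in libraries 2 and 4. Of the exonic bases of *Gtf3a*, 1505 (59.1%) also lie in exons of the antisense gene *Mtif3*, whose reads cannot be told apart there without strand. *Mtif3* had a log2 fold change of −0.05.

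The 6 TFIIIC genes, which bind the internal promoter of tRNA genes, had a median log2 fold change of −0.15 and spread to both sides. *Gtf3c1*, the largest subunit, is given by library because its value was the highest. It had 30.0, 30.0 and 35.6 CPM in *Myc* wt/wt and 51.0, 32.4 and 47.0 CPM in *Myc* fl/fl libraries. *Myc* fl/fl library 2 lay among the *Myc* wt/wt libraries. Its log2 fold change of 0.42 was the highest of the 36 genes (edgeR adjusted p = 0.173), and it was 0.26 without replicate 1. *Gtf3c2*, *Gtf3c3*, *Gtf3c4*, *Gtf3c5* and *Gtf3c6* had 0.09, −0.24, −0.25, −0.32 and −0.06. Of the 6 genes, 1, *Gtf3c5*, was lower in each *Myc* fl/fl library than in any *Myc* wt/wt library (background 15.1%). Without replicate 2, *Gtf3c5* had a log2 fold change of −0.06. *Gtf3c2* shares 2556 exonic bases (38.9%) with the gene *Gm29609* on the same strand, so its counts are uncertain. *Maf1*, which represses Pol III when nutrients or growth signals are lacking, had a log2 fold change of 0.12 (95% confidence interval −0.18 to 0.43).

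Levels between genes were compared in TPM, which account for transcript length. The 36 genes covered a 52.1-fold range in *Myc* wt/wt cells, from *Maf1* at 224 ± 41.7 TPM to *Gtf3c4* at 4.29 ± 0.52 TPM (SD, n = 3 each), with a median of 27.1 TPM. In *Myc* fl/fl cells *Maf1* and *Gtf3c4* were again first and last, at 264 ± 9.34 and 3.36 ± 0.62 TPM. Below *Maf1* in *Myc* wt/wt cells came *Gtf3a* (134 TPM), *Polr1d* (121 TPM) and *Gtf3c6* (119 TPM), and each overlapped with the next in its library values, while *Gtf3a* and *Gtf3c6* did not overlap. Of the 35 neighbouring pairs in the order, 32 overlapped in their library values and 3 did not, *Maf1* and *Gtf3a*, *Gtf3c6* and *Twistnb*, and *Polr3gl* and *Rrn3*. *Gtf3a* was 4th in the *Myc* fl/fl order, at 90.7 ± 4.92 TPM, and *Polr1d* and *Gtf3c6* stood above it without overlap with it. The median over the 6 Pol I subunits was 23.6 TPM in *Myc* wt/wt and 13.9 TPM in *Myc* fl/fl cells, and over the 10 Pol III subunits it was 19.5 and 17.2 TPM.

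**Figure D4:**
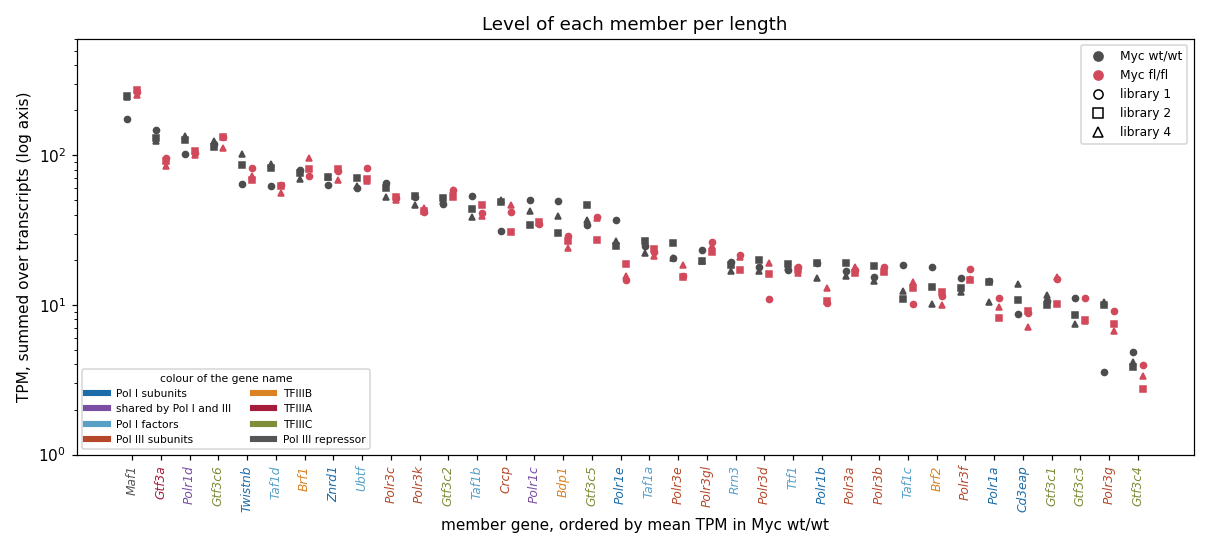
TPM (vertical axis, log scale) of the 36 genes in each library, in order of their mean in Myc wt/wt cells, with dark points for Myc wt/wt, red points for Myc fl/fl and symbols for libraries 1, 2 and 4. The levels run from *Maf1*, at 176 to 251 TPM in Myc wt/wt cells, to *Gtf3c4*, at 3.87 to 4.87 TPM, and neighbours mostly overlap.

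Genes related to this machinery, among them Pol II subunits, nucleolar proteins and processing factors, were counted in 5 lists, 46 of whose 47 genes were tested. Together, 35 of the 46 had a negative log2 fold change, with a median of −0.21, and at an adjusted p below 0.05 in edgeR 4 were lower (background 3.38%) and 0 were higher (background 4.45%). At an unadjusted p below 0.05, 12 were lower (background 10.2%) and 0 were higher (background 12.4%). The 5 subunits common to Pol I, Pol II and Pol III had a median of −0.42, with 1 lower at an adjusted p below 0.05 (background 3.38%), *Polr2l* (−0.67, edgeR adjusted p = 0.0171), and *Polr2f* next (−0.43, edgeR adjusted p = 0.107). The 8 Pol II subunits had a median of −0.15 and none called, with *Polr2a* at 0.28 and *Polr2c* at −0.24. The 9 other promoter and Pol III factors had a median of −0.08 and none called, with *Snapc3* at −0.34, *Pou2f1* at −0.28 and *Tbp* at −0.15.

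Of the 9 genes of ribosomal DNA chromatin and Pol I partners, 3 were lower at an adjusted p below 0.05 (background 3.38%), *Npm1*, *Nolc1* and *Ncl*, all abundant nucleolar proteins, and the median was 0.01. *Npm1* was the one gene of the 5 lists past the stricter limits in edgeR, where the background was 0.872% (log2 fold change −1.12, edgeR adjusted p = 0.00447). *Nolc1* had −0.58 (edgeR adjusted p = 0.0334) and *Ncl* had −0.53 (edgeR adjusted p = 0.0417). The 15 tested genes that process Pol III transcripts had a median of −0.25 and none called at 0.05, with *Rpp38* and *Rpp14*, protein subunits of RNase P, at −0.87 (edgeR adjusted p = 0.0590) and −0.47.

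**Figure D5:**
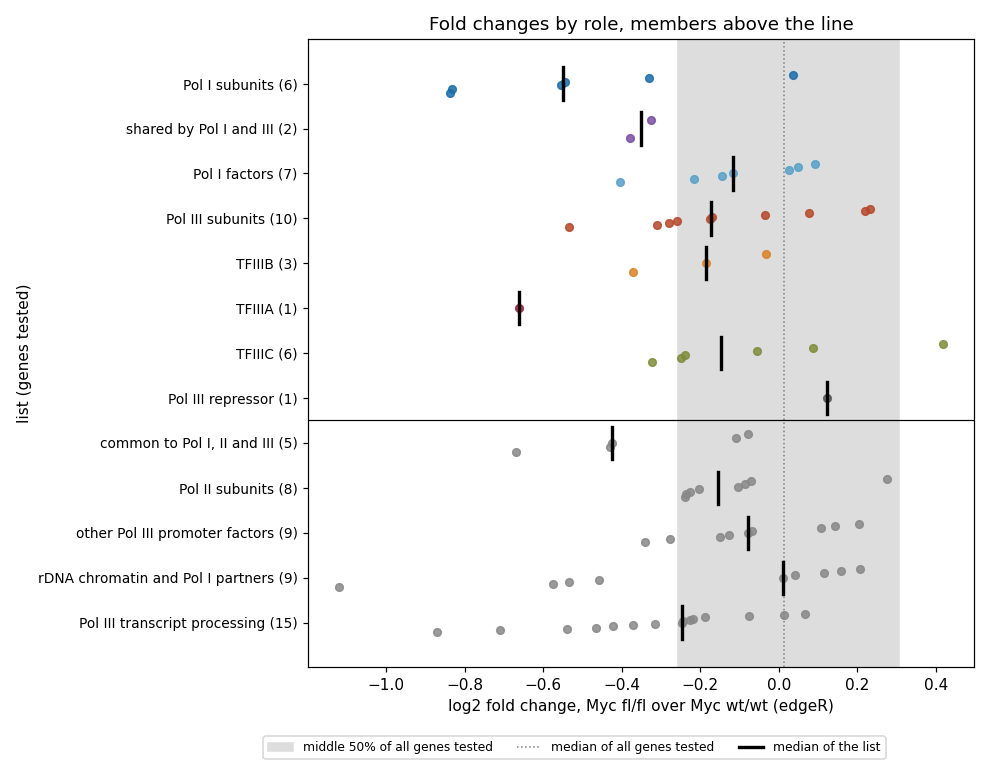
Log2 fold change, Myc fl/fl over Myc wt/wt (horizontal axis), of each gene by role (rows, with the number tested), for the 36 genes above the line and for the 5 related lists below it, with a black bar at each median. The grey band is the middle 50% of all genes tested, from −0.26 to 0.31, and 15 of the 36 genes lie to its left, in every role except that of *Maf1*, and 1, *Gtf3c1*, to its right.

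The 3 calls rest on few libraries. Without replicate 1, which holds the library of least depth, edgeR called 0 of the 36 genes at an adjusted p below 0.05 (9 lower at an unadjusted p below 0.05, and a background of 1.69% at the adjusted limit), with log2 fold changes of −0.63 for *Polr1b*, −0.61 for *Polr1e* and −0.56 for *Gtf3a*. Without replicate 4 it called *Polr1b* (background 2.61%), and without replicate 2 it called *Polr1e* and *Gtf3a* (background 1.89%). When *Myc* wt/wt library 1 alone was left out, without the replicate block, *Polr1b*, *Polr1e*, *Gtf3a* and *Taf1d* were lower at that limit (background 3.87%). The sign of *Znrd1*, *Ubtf*, *Rrn3*, *Taf1c*, *Polr3a*, *Polr3b*, *Polr3g*, *Crcp*, *Brf1* and *Gtf3c6*, none of which was called, turned in at least 1 other setting.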

How the data were processed

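RNA from 6 libraries of sorted CD27SP NK cells was sequenced by the authors single end after SMART-Seq v4 amplification, which does not mark strand. The authors deposited, per transcript, an estimated count (expected count, not normalized), a TPM value and an effective length. The methods name Salmon and GRCh38, whereas the table columns are those of kallisto and the identifiers are of mouse. The build is taken from the annotation that matched them, and 100239 of 100583 transcripts were found in GENCODE M21 (GRCm38).

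Estimated counts were summed by gene symbol and rounded. Genes kept by filterByExpr were normalized by TMM and tested with edgeR 4.0.16 in R 4.3.3 (quasi-likelihood test, Benjamini-Hochberg adjustment over 15474 genes), with a block for the replicate number, as the study calls its comparison paired. Pair differences used log2(CPM + 0.5). Alternatives were DESeq2 1.42.0, limma-trend 3.58.1 (prior count 2), the largest adjusted p of the 3 tools, other scalings, filters and depth, effective-length offsets, log2(TPM + 1), and libraries left out.

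The genes and lists were chosen with earlier results of these data known, so no p-value was adjusted over a list alone and no list was tested. By the rule for named genes, all 36 were named, with library values for those at an adjusted p under 0.05 and for the pairs *Polr3g* and *Polr3gl*, and *Brf1* and *Brf2*. *Polr1a*, *Cd3eap*, *Polr3e* and *Gtf3c1* were given by library, and *Ncl* and *Mtif3* named, after their values were seen. In the related lists, the 2 smallest adjusted p, *Tbp* and *Myc* were named, and in the marker lists the 2 most abundant genes. A further gene that the rule names is not reported here. Intervals cover the spread between libraries, and within each genotype the libraries differed beyond counting noise.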

Additional observations from a re-analysis of the deposited data

How the results depend on the processing

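The median of the 36 genes stayed below 0 in all settings tried, and between 23 and 26 genes had a negative log2 fold change. The median was −0.20 with and without the replicate block, −0.15 to −0.26 with 1 replicate number left out, −0.16 without *Myc* wt/wt replicate 1 and −0.13 for log2(TPM + 1) in limma-trend. Same-numbered libraries did not deviate together (correlations of −0.00496, −0.0665 and 0.084 for numbers 1, 2 and 4, with a limit of 0.1), and a pairing by number is not shown. Without the replicate block, 4 genes were lower at an adjusted p below 0.05, the 3 of the blocked fit and *Polr3e* (4.47% of all genes tested). This count was 0 to 2 with 1 number left out, 5 in DESeq2 (6.43% of all), 1 (*Gtf3a*) with offsets from effective lengths (1.80%) and 0 for log2(TPM + 1) in limma-trend (0.543%, with 4 of the 36 at an unadjusted p below 0.05). The number lower at an adjusted p below 0.01 and 0.5 or more in log2 fold change was 3 in DESeq2 (3.92% of all). It was 2 (*Polr1b* and *Gtf3a*) in edgeR with no filter (1.83%). With the largest adjusted p of the 3 tools, which is the study's rule, it was 0, and 78 of all 15474 genes tested were lower. The log2 fold change of *Myc* was −1.30 to −1.62 with 1 number left out, with an adjusted p of 0.0105 without replicate 1, and −1.51 for log2(TPM + 1) in limma-trend (adjusted p = 0.0282). The difference in the log2 ratio of *Polr3g* to *Polr3gl* was −0.27 to −0.49 with 1 number left out and −0.15 in TPM. That of *Polr1a* to *Polr3a* was −0.44 in TPM, against −0.76 in CPM (added after seeing the data). Signs turned for 10 genes, none of them called. With 1 number left out, *Znrd1* ranged from −0.0462 (without 2) to 0.117, *Ubtf* from −0.0591 (without 1) to 0.129, *Rrn3* from −0.0846 (without 4) to 0.096, *Polr3b* from −0.152 to 0.0739 (without 2), *Crcp* from −0.475 to 0.0122 (without 2), *Brf1* from −0.252 to 0.195 (without 1) and *Gtf3c6* from −0.123 to 0.0264 (without 4). Without *Myc* wt/wt replicate 1, *Brf1* had 0.0995. With offsets from effective lengths, *Taf1c* had −0.193, *Polr3a* −0.0695, *Polr3b* 0.0256, *Brf1* 0.0633 and *Gtf3c6* 0.00539. For log2(TPM + 1), *Taf1c* had −0.129, *Polr3b* 0.0962, *Polr3g* 0.0641, *Brf1* 0.136 and *Gtf3c6* 0.0812. The cause of these turns was not tested.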
